A study of Mus musculus with 79 samples.

Results

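The genes described here are 37 that red blood cell precursors use to make haemoglobin and to build the red cell. They were taken by gene symbol from the count and TPM tables of a mouse RNA-seq series, where they are 37 of 39063 gene IDs, and all 37 were among the 14873 genes tested, whose TPM averaged 0.4 or more over the libraries. TPM is a level per transcript length, scaled so that each library has the same total. The list holds 5 globin genes with their chaperone (Hba-a1, Hba-a2, Hbb-bs, Hbb-bt, Ahsp), 10 membrane and surface genes (Slc4a1, Ank1, Sptb, Epb42, Epb41, Rhag, Rhd, Kel, Ermap, Icam4), 9 genes of haem synthesis and iron import (Alas2, Alad, Uros, Urod, Cpox, Ppox, Fech, Slc25a37, Tfrc), 5 regulators (Klf1, Gata1, Tal1, Nfe2, Epor) and 8 genes of red cell enzymes and maturation (Car1, Car2, Bpgm, Blvrb, Trim10, Trim58, Xpo7, Tspo2).

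The series holds 79 libraries from 51 mice in 16 groups, each library 1 tissue of 1 mouse. BMAd-Pnpla2-/- mice (here cKO) lack the lipase ATGL in bone marrow adipocytes only, on a mixed SJL and C57BL6 background, and their BMAd-Pnpla2+/+ littermates served as controls (here WT). At 4–5 months of age, mice received PBS or leptin at 100 ng per h into the brain ventricles (ICV) for 9 days, with the PBS mice pair-fed, and some male WT mice also received insulin under the skin over the same 9 days. Caudal vertebrae (CV), whose marrow is rich in fat, were taken from female WT mice (PBS n = 5, leptin n = 5), female cKO mice (4 and 4), male WT mice (5 and 8), male cKO mice (5 and 4) and male WT mice with insulin (5 and 6). Lumbar vertebrae (LV), which hold red marrow, came from the same 10 female WT and 8 female cKO mice, and inguinal white adipose tissue (iWAT) from the same 10 female WT mice. Whole vertebrae were used, so each bone library mixes marrow, bone and adhering tissue, and fewer cells of a type and less RNA per cell cannot be told apart. The mice were bled from behind the eye and perfused with PBS and/or dissected at the end point, and which libraries came from perfused mice is not given in the sources used here.

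A red cell precursor in the marrow switches on GATA1, TAL1 and KLF1, which together drive the globin genes, the haem pathway and the membrane genes. Haem is built from glycine through a chain of enzymes that starts with ALAS2, the red cell form of the first and rate-limiting enzyme, and ends with ferrochelatase (Fech), which inserts iron. Transferrin receptor (Tfrc) brings the iron in, and Slc25a37 carries it into the mitochondrion. Slc4a1 encodes the anion exchanger of the red cell membrane. Globin and Alas2 mRNA, among others, persist into the reticulocyte, the enucleated young red cell that enters the blood.

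The 250 bases before the transcription start of 4 members are shown because the results turn on Hba-a1, Hbb-bs and Alas2, and because Rhd stands for the membrane genes. They were read from RefSeq on GRCm38.p6: Hba-a1 at chr11:32283422-32283671 (plus strand), Hbb-bs at chr7:103827929-103828178 (minus strand), Alas2 at chrX:150547167-150547416 (plus strand) and Rhd at chr4:134864286-134864535 (plus strand). Capitals mark the word AGATAA, which GATA factors can bind, the word TGATAA, which they can bind as well, and the word CACCC, which KLF factors can bind, on either strand (a word on the minus strand is marked as its reverse complement).
Hba-a1: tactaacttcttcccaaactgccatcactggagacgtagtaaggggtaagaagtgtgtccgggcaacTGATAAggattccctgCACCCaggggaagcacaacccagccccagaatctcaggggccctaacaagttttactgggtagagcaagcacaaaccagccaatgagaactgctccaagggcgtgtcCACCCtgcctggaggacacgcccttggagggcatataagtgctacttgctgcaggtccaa
Hbb-bs: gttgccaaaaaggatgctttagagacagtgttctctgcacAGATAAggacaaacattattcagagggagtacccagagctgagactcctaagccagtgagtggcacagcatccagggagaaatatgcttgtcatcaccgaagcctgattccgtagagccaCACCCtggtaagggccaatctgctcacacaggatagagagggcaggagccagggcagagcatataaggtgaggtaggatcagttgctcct
Alas2: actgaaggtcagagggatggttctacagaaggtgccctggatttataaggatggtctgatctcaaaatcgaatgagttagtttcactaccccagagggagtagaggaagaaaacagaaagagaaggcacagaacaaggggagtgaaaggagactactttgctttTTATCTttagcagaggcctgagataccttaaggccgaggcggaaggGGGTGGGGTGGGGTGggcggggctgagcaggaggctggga
Rhd: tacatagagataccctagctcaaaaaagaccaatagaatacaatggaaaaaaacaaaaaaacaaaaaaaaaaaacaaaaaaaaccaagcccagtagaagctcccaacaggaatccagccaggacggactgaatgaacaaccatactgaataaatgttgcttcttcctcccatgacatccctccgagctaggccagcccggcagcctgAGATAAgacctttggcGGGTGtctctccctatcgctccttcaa
In Alas2 the GATA word lay at 86–81 bases before the start, with 3 consecutive CACCC words between it and the start. Of 28 members with a window in the RefSeq table, 15 held a GATA word, 20 a CACCC word and 14 both. Over all 32851 windows of the same length, 16.6% held a GATA word, 52% a CACCC word and 7.11% both. The windows of Hba-a1 and Hba-a2 were identical over 247 aligned bases, and the windows of Ahsp, Ank1, Car1, Car2, Fech, Nfe2, Slc25a37, Slc4a1 and Xpo7 were not analysed here.

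Libraries held 16100377–19364106 counts in CV, 17638318–19100698 in iWAT and 28717516–29757254 in LV. Pnpla2, which encodes ATGL, had a median of 261 TPM in CV of female WT PBS mice against 165.3 in female cKO PBS mice, and 228 against 160.6 in males, and the deletion is confined to 1 cell type of the tissue. The adipocyte list (Adipoq, Plin1 and 6 others) summed to 54869–94175 TPM in iWAT, 4645–12735 in CV and 229–548 in LV, and the neutrophil list (S100a8, Elane and 8 others) to 130219–260297 in LV, 919–13293 in CV and 146–495 in iWAT. The muscle list (Acta1, Ckm and 6 others) summed to 14524–60942 TPM in CV, 731–2611 in LV and 7.15–3545 in iWAT, so CV libraries carried muscle RNA at levels that differed between libraries. Differences were tested with edgeR's quasi-likelihood test over all 14873 genes, and a gene was called when its Benjamini-Hochberg adjusted p was under 0.05 and its log2 fold change was 0.5 or more in size. The replicates within a group are separate mice, so the p-values measure the spread between mice. Comparisons between tissues used the same mice, and their main fits had no mouse term. Fits with the mouse as a block are among the alternatives.

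In TPM, red marrow set the upper end of the range for all of the 37 genes but Ank1, which reached 104.3 TPM in CV and 48.49 in LV. In the 5 female WT PBS mice, all 37 were called higher in LV than in CV of the same mice, with a median log2 difference of 6.02 against -0.02 over all genes. At this comparison 66.6% of all tested genes were called, 31.7% as higher and 34.9% as lower. By class, the median log2 difference was 7.01 for the globin genes, 8.45 for the membrane genes, 3.53 for haem and iron, 5.36 for the regulators and 7.11 for enzymes and maturation. The largest was that of Ahsp, the chaperone of free alpha globin, at 10.16 (log2, SE 0.35, adjusted p = 4.64e-11).

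Ahsp stood at 3767, 3848, 4377, 4634 and 4322 TPM in LV and at 2.62, 16, 10.1, 7.11 and 6.92 TPM in CV. Slc4a1 stood at 460.4, 410.1, 444, 449 and 430.4 TPM in LV and at 1.04, 3.62, 3.09, 1.2 and 3.16 in CV. Gata1, the GATA factor that erythroid cells cannot mature without, stood at 66.5, 60.8, 61.5, 67.9 and 63.8 TPM in LV and at 0.72, 1.6, 1.5, 0.86 and 0.49 in CV. For each of these 3 genes the LV and CV groups lay far apart, with log2 differences of 10.16, 8.61 and 7.06.

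The beta globin gene Hbb-bs stood at 109101, 105909, 102383, 124466 and 102118 TPM in LV and at 1159.7, 1439.9, 1686, 2162 and 3297 in CV. Alas2 stood at 688.7, 627, 616, 746 and 671 TPM in LV and at 11.4, 16, 17.6, 20.1 and 39.7 in CV. The log2 differences were 7.01 (log2, SE 0.30, adjusted p = 2.61e-10) for Hbb-bs and 6.14 (log2, SE 0.31, adjusted p = 1.31e-09) for Alas2. CV thus held Hbb-bs at 1159.7 TPM or more. Epb42, Rhag and Kel encode proteins of the red cell membrane and its blood group antigens, and had means of 0.206, 0.212 and 0.232 TPM there. Not all membrane genes were this low, with Ank1 at 44.2–72.7 and Sptb at 10.1–15 TPM in these CV libraries. The 10 membrane genes together summed to 87.75–112.57 TPM. Over all groups the 4 globins without Ahsp took 16–32.7% of TPM in LV and 0.15–4.43% in CV.

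**Figure D1:**
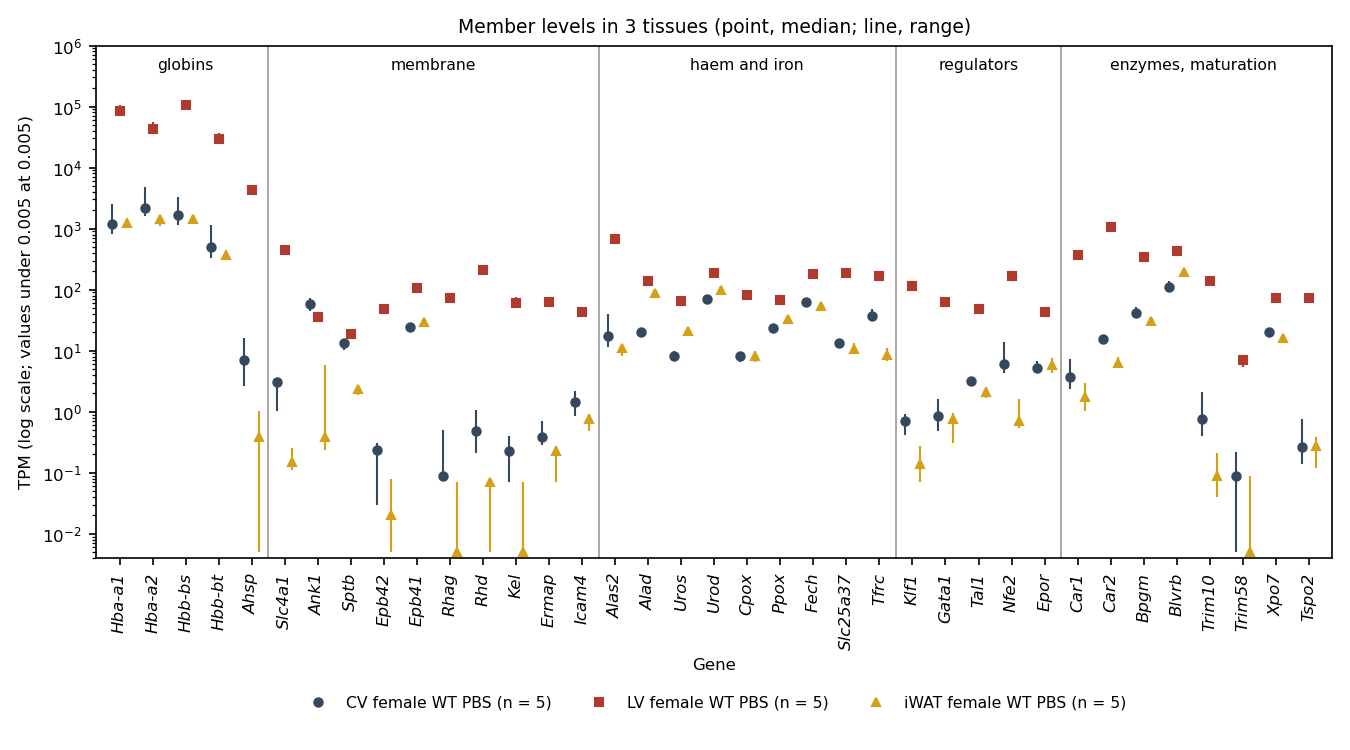
Level of each of the 37 genes in CV, LV and iWAT of the 5 female WT PBS mice, as TPM on a log axis, with the point at the median and the bar from the lowest to the highest mouse. LV lies highest for nearly every gene, whereas for the globins other than Ahsp CV and iWAT lie close together.

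36 of the 37 genes had every LV value above every CV value in TPM, against 11.4% of all tested genes without overlap as higher and 71.6% as lower, and the exception was Ank1. Ank1 encodes the ankyrin that ties the anion exchanger to the spectrin skeleton, and its gene also gives a small form in striated muscle. It stood at 34.6, 38.1, 33.9, 38.7 and 35.7 TPM in LV and at 72.7, 59.2, 61.1, 48.1 and 44.2 in CV, so that LV was lower in every library on this scale. The count model gave it a log2 difference of 1.47 (log2, SE 0.14, adjusted p = 4.09e-07) in the opposite direction. limma on log2(TPM + 1) gave -0.62 with an adjusted p of 0.000265, on a scale where the median of all genes was -0.87. The direction for Ank1 therefore differed between counts and TPM, the only such case among the 37.

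Over all 18 female mice, 34 genes were higher in LV than in CV of the same mouse in every mouse. Ank1 was lower in LV in 17 of 18 mice, Tfrc was higher in 17 of 18, and Sptb, which encodes beta spectrin, was higher in 12 of 18. Within LV, Ank1 followed Slc4a1, with a Spearman rho of 0.95 over 18 libraries, and within CV it did not, with a rho of -0.0043 over 51 libraries (descriptions across libraries that share a tissue and a treatment design). In iWAT, Ank1 stood at 5.77, 0.24, 0.38, 5.2 and 0.25 TPM in the PBS mice and at 0.86, 6.63, 0.27, 1.62 and 0.36 in the leptin mice. The 3 libraries above 5 TPM were PBS replicates 1 and 4 and leptin replicate 2. Their muscle list sums were 2483, 2548 and 3545 TPM, against 7.15–680.5 TPM in the other 7 iWAT libraries. The part of muscle RNA in the Ank1 level was not tested.

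Against CV, iWAT of the same 5 female WT PBS mice was lower for many of the 37 genes and higher for several enzymes of haem synthesis. 19 of the 37 genes were called lower and 5 higher, where 26% and 24.5% of all tested genes were called in those directions. The 5 higher were Alad at 2.07, Uros at 1.30, Blvrb at 0.97, Urod at 0.73 and Ppox at 0.65 on the log2 scale. 4 of them are enzymes of the haem pathway that other cells also need, and Blvrb is a biliverdin reductase. The largest negative log2 differences among genes with more than a few counts were those of Ank1 at -4.22, Slc4a1 at -3.79, Nfe2 at -3.17, Sptb at -2.35 and Tfrc at -2.03.

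Of the 4 globin genes, Hba-a2 was called lower in iWAT and the other 3 were not called. Hbb-bs stood at 1667, 1172, 1464, 1581 and 1312 TPM in iWAT, within the range of the CV values, with a log2 difference of -0.24 (log2, SE 0.21, adjusted p = 0.329). Hba-a1 differed by 0.05 (log2, SE 0.23, adjusted p = 0.855) and Hbb-bt by -0.47 (log2, SE 0.25, adjusted p = 0.112). Hba-a2 stood at 1528, 1310.5, 1417, 1562 and 1123 TPM in iWAT and at 1583, 2089.9, 2151, 2599 and 4853 in CV, without overlap, with -0.73 (log2, SE 0.23, adjusted p = 0.0139). This value depends on how reads were divided between Hba-a2 and the near-identical Hba-a1. The summed TPM of the 2 genes overlapped, at 2143–3046.5 in iWAT and 2405–7413 in CV, and the sum was not tested in this comparison. Alas2 stood at 11.4, 8.11, 10.3, 12.6 and 11 TPM in iWAT, overlapping the CV values, and was called lower with -0.79 (log2, SE 0.26, adjusted p = 0.0173). Without CV PBS replicate 5 the Alas2 difference was -0.46, under the fold threshold. Gata1 differed by -0.51 (log2, SE 0.41, adjusted p = 0.283) and was not called. Slc4a1 stood at 0.11, 0.15, 0.11, 0.16 and 0.25 TPM in iWAT, below every CV library. Tfrc stood at 8.49, 8.14, 6.73, 11 and 9.23 TPM in iWAT and at 37.2, 37.6, 37.2, 48.9 and 37.6 in CV. Rhag had 2 counts and Kel 1 count over all 5 iWAT PBS libraries, so no fold is given for them. In TPM, 17 members were lower and 5 higher in iWAT without overlap, against 34.7% and 22% of all tested genes. Of the 37 genes, 15 were lower and 5 higher in iWAT than in CV in every one of the 10 mice with both tissues.

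The Alas2 level followed the globins across tissues that differed in globin mRNA by over an order of magnitude. Alas2 was 0.184–0.424% of the summed TPM of the 4 globins over all 79 libraries. Over the 51 CV libraries, which share their tissue and their treatment groups, the Spearman rho with Hbb-bs was 0.96 for Alas2, 0.96 for Hbb-bt and 0.94 for Hba-a1. The same measure was 0.01 for Slc4a1 and -0.12 for Ahsp, whereas Ahsp and Slc4a1 had a rho of 0.84 with each other. In the 18 LV libraries Slc4a1 had a rho of 0.92 with Alas2 and 0.74 with Hbb-bs. The CV rho pools leptin and PBS libraries, and leptin moved Hbb-bs and Slc4a1 in opposite directions in female WT CV. In male WT PBS CV the 2 genes ranked alike, Slc4a1 at 1.37, 0.43, 1.89, 1.03 and 0.41 TPM and Hbb-bs at 2265, 976, 2507, 1356 and 881. In male WT leptin CV they did not, the lowest Slc4a1 value, 0.28 TPM, falling in a library with Hbb-bs at 7740 TPM. No rho was taken within groups.

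The split of alpha globin between its 2 genes differed by tissue and sex. Hba-a1 and Hba-a2 have coding sequences of 429 bases with 1 difference, and 74.51% of the 100-base stretches of the Hba-a2 transcript also occur in Hba-a1, so a count for either gene depends on how the reads were divided. The Hba-a2 to Hba-a1 ratio of TPM was 1.68–3.09 in female CV, 0.554–0.664 in male CV, 0.5–0.563 in LV and 0.907–1.80 in iWAT. In female WT CV it was 2.68 ± 0.51 (SD, n = 5) with leptin and 1.91 ± 0.04 (SD, n = 5) with PBS. Female and male CV did not overlap. Female LV and male CV libraries lay close to each other and apart from the CV libraries of the same females. Hbb-bs and Hbb-bt, with 1 difference over 444 coding bases, carry the same limit.

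**Figure D2:**
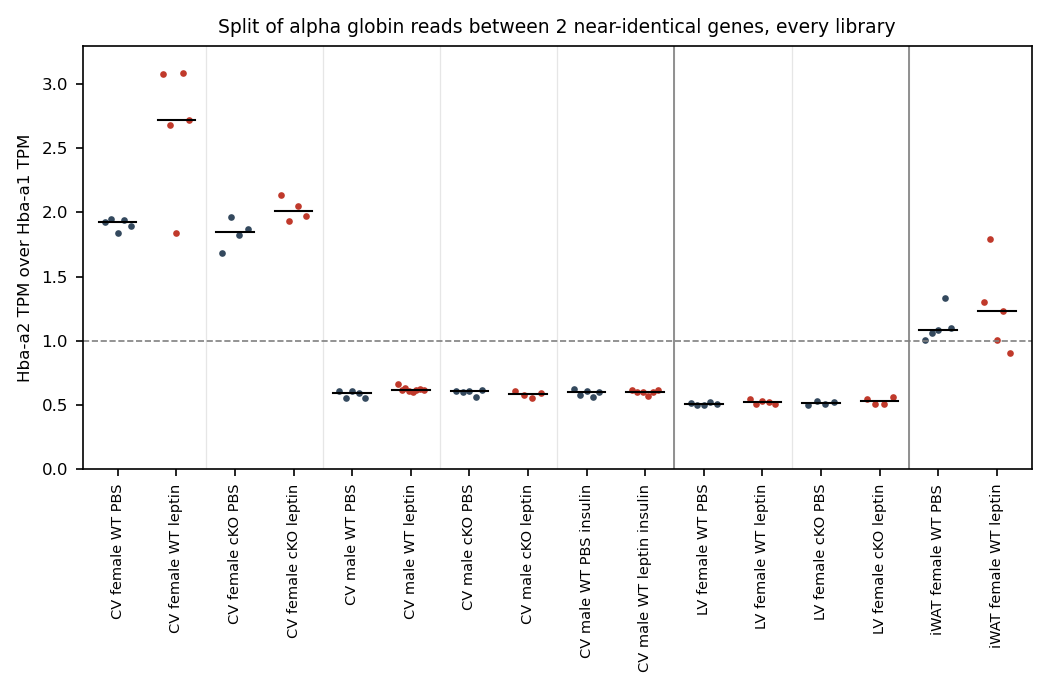
Ratio of Hba-a2 to Hba-a1 TPM in every library, by tissue and group. Female CV and iWAT libraries lie at or above 0.907 and male CV and LV libraries at or below 0.664.

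Leptin raised globin and Alas2 mRNA in CV of female WT mice while Ahsp, Slc4a1 and Ank1 fell. 4 members were called higher (Alas2, Hba-a2, Hbb-bs, Hba-a1) and 3 lower (Ahsp, Slc4a1, Ank1), where 2.78% and 2.25% of all tested genes were called. In TPM, 2 members were higher (Hba-a2, Hbb-bs) and 2 lower (Ahsp, Ank1) without overlap between groups, against 3.81% and 2.75% of all tested genes. The median over the 37 was -0.12 on the log2 scale, against -0.01 over all genes.

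Hbb-bs stood at 3438, 8912, 8301, 3844 and 14143 TPM with leptin, against 1159.7, 1439.9, 1686, 2162 and 3297 TPM with PBS. The groups did not overlap, and the log2 fold change was 1.97 (log2, SE 0.40, adjusted p = 0.0164). Alas2 stood at 32.8, 90.3, 87.1, 37.7 and 167.1 TPM with leptin, and Hba-a1 at 1589.6, 4867, 5784, 1797 and 7215 TPM with leptin against 822, 1075, 1168, 1341 and 2561 with PBS. For both genes the groups overlapped through PBS replicate 5, the highest PBS library, which lay above leptin replicates 1 and 4. The log2 fold change was 2.00 (log2, SE 0.46, adjusted p = 0.0248) for Alas2 and 1.58 (log2, SE 0.44, adjusted p = 0.0466) for Hba-a1. Hba-a2 rose by 1.99 (log2, SE 0.41, adjusted p = 0.0165), and Hbb-bt had 1.54 (log2, SE 0.45, adjusted p = 0.0545).

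Ahsp went against the other globin genes. It stood at 0, 2.16, 1.26, 1.21 and 1.97 TPM with leptin, below every one of the PBS values, and its log2 fold change was -2.72 (log2, SE 0.59, adjusted p = 0.0203) on 17 counts over the leptin group and 109 over the PBS group. Slc4a1 stood at 0.33, 0.93, 0.58, 0.31 and 1.21 TPM with leptin against 1.04, 3.62, 3.09, 1.2 and 3.16 with PBS, a partial overlap, on 179 and 608 counts. Its log2 fold change was -1.84 (log2, SE 0.47, adjusted p = 0.0349). Ank1 stood at 41.3, 41.7, 37.1, 40.5 and 34.3 TPM with leptin, below all PBS libraries, with -0.55 (log2, SE 0.15, adjusted p = 0.0436). Gata1 stood at 0.66, 0.69, 0.79, 1.13 and 0.49 TPM and overlapped the PBS group, with -0.51 (log2, SE 0.36, adjusted p = 0.409). Tfrc stood at 27.4, 40.4, 42.7, 37.9 and 46.4 TPM, also overlapping, with -0.04 (log2, SE 0.14, adjusted p = 0.885).

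Marker lists of other cell types were read in the same libraries. The muscle list summed to a median of 37416 TPM with PBS (17856–38937) and 15184 with leptin (14524–34144), with 0 of 8 genes called. The osteoblast list summed to medians of 5255 (2669–6985) and 13984 (5662–17317), with 3 of 7 called higher. The osteoclast list had 2 of 7 called higher, the cell cycle list 7 of 8 higher and the adipocyte list 3 of 8 lower. The island macrophage list, chosen for macrophages that tend erythroid islands, had 3 of 8 higher. That macrophage list summed to 799–1078 TPM in CV, 398–558 in LV and 578–1313 in iWAT of female WT PBS mice. It was thus not particular to red marrow. No gene of these lists was at 0 in all libraries of either group. The part of these shifts in the changes of the 37 genes was not tested. The number of members called also rested on single libraries. It was 0 without PBS replicate 2, 3 without PBS replicate 1, and 4 without PBS replicate 3 or leptin replicate 3, 4 or 5, against 7 with all libraries.

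**Figure D3:**
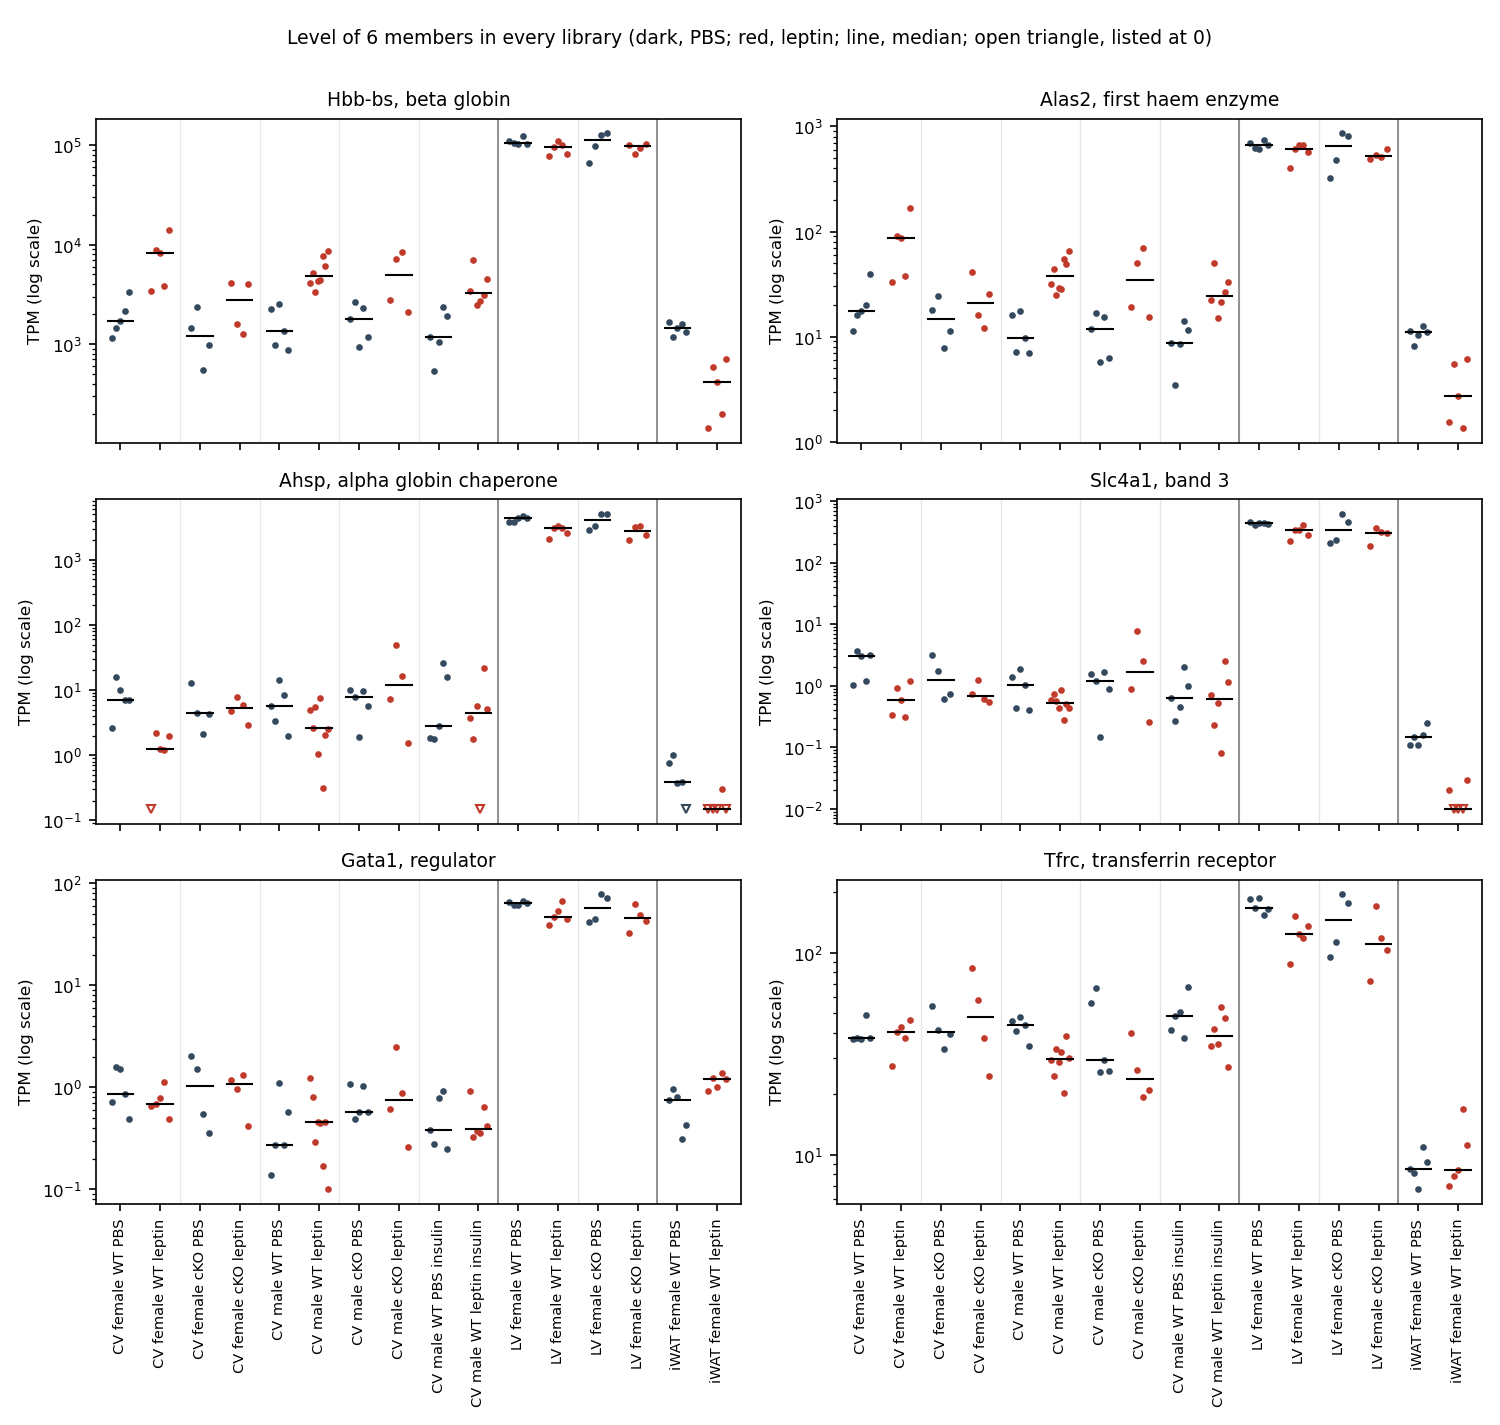
TPM of Hbb-bs, Alas2, Ahsp, Slc4a1, Gata1 and Tfrc in every library of the 16 groups on log axes, PBS in dark and leptin in red, with a line at each group's median and open triangles for libraries listed at 0. Leptin medians lie above PBS medians for Hbb-bs and Alas2 in WT CV and below in iWAT. For Gata1, leptin and PBS libraries overlap in WT CV, and the leptin median lies above the PBS median in iWAT.

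In CV of male WT mice, the alpha and beta globin genes and Alas2 rose. 5 members were called higher (Alas2, Hbb-bs, Hba-a2, Hba-a1, Hbb-bt) and 1 lower (Tfrc), where 0.834% and 0.914% of all tested genes were called. In TPM, 4 members were higher (Hba-a1, Hba-a2, Hbb-bs, Alas2) and 1 lower (Ank1) without overlap, against 1.35% and 0.84% of all tested genes. Hbb-bs ranged from 3363 to 8653 TPM (median 4827) in the 8 leptin mice, and stood at 2265, 976, 2507, 1356 and 881 TPM in the 5 PBS mice. Alas2 ranged from 25 to 65.9 TPM (median 37.8) with leptin, and stood at 16.2, 7.09, 17.5, 9.8 and 6.92 TPM with PBS. Neither gene overlapped between groups, and the log2 fold changes were 1.74 (log2, SE 0.30, adjusted p = 0.0065) and 1.80 (log2, SE 0.30, adjusted p = 0.0053). Hba-a1 ranged from 3287 to 8806 TPM (median 5010.1) with leptin against 2541, 1118, 2789, 1367 and 1022 TPM with PBS, again without overlap, and changed by 1.66 (log2, SE 0.31, adjusted p = 0.00978). Hba-a2 rose by 1.72 (log2, SE 0.32, adjusted p = 0.00961) and Hbb-bt by 1.50 (log2, SE 0.31, adjusted p = 0.0174).

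Tfrc ranged from 20.2 to 38.5 TPM (median 29.8) with leptin and stood at 45.9, 41.1, 48, 43.9 and 34.5 TPM with PBS, overlapping in 1 PBS and 1 leptin library, and fell with a log2 change of -0.57 (log2, SE 0.12, adjusted p = 0.0229). Slc4a1 ranged from 0.28 to 0.86 TPM (median 0.535) with leptin against 1.37, 0.43, 1.89, 1.03 and 0.41 TPM with PBS, with -0.95 (log2, SE 0.34, adjusted p = 0.141). Ahsp ranged from 0.31 to 7.62 TPM (median 2.58) against 5.72, 3.31, 14.5, 8.49 and 1.94 TPM, with -1.09 (log2, SE 0.53, adjusted p = 0.281), and Gata1 had 0.01 (log2, SE 0.54, adjusted p = 0.995). The groups overlapped for all 3 of these genes. Ank1 did not overlap and had -0.46 (log2, SE 0.11, adjusted p = 0.0282), short of the fold threshold. The count of called members was 4 without PBS replicate 2 or 4, and otherwise 5 or 6. The muscle list had a median sum of 43829 TPM with PBS (39564–47072) and 31357 with leptin (21182–40151), and its part in these changes was not tested. The adipocyte list had 3 of 8 genes called lower and the island macrophage list 1 of 8 called higher.

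In cKO mice, no member was called for leptin in CV of either sex. In females, edgeR called 0.0269% of all tested genes, and 2 of the 37 members had an unadjusted p below 0.05, while DESeq2 and limma called 0 members. Hbb-bs stood at 4131, 1588, 1253 and 3975 TPM with leptin and 1465, 2344, 548 and 970.1 with PBS, and overlapped, with 1.13 (log2, SE 0.55, adjusted p = 0.458). Alas2 stood at 40.8, 16.2, 12.1 and 25.3 TPM with leptin and 17.9, 24.3, 7.74 and 11.3 with PBS, with 0.67 (log2, SE 0.44, adjusted p = 0.564). Leptin replicates 1 and 4 were above all PBS libraries for both genes, and the other 2 leptin libraries lay within the PBS range. Hba-a1 had 0.78 (log2, SE 0.54, adjusted p = 0.579), Slc4a1 -0.95 (log2, SE 0.52, adjusted p = 0.5), Gata1 -0.16 (log2, SE 0.56, adjusted p = 0.926) and Tfrc 0.30 (log2, SE 0.29, adjusted p = 0.706).

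In male cKO mice, 0.188% of all tested genes were called, and 9 members had an unadjusted p below 0.05. The share of all tested genes with such an unadjusted p was not taken, here or in the other comparisons. edgeR and limma called 0 members, and DESeq2 called 5, all higher, among 214 genes over all tested. Hbb-bs stood at 2794, 7136, 8339 and 2093 TPM with leptin and 1794, 2648, 931, 2284 and 1188 with PBS, with 1.63 (log2, SE 0.42, adjusted p = 0.156). Alas2 stood at 19.1, 49.9, 69.6 and 15.5 TPM with leptin and 11.8, 16.6, 5.7, 15.3 and 6.31 with PBS, with 1.88 (log2, SE 0.46, adjusted p = 0.134). Leptin replicates 2 and 3 lay far above the PBS range, replicate 1 just above it and replicate 4 within it. Hba-a1 had 1.77 (log2, SE 0.46, adjusted p = 0.154), close in size to that in male WT mice and with a larger error.

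Ahsp, Slc4a1 and Klf1 stood high in 1 library of male cKO CV. Ahsp stood at 7.24, 49, 16.6 and 1.55 TPM with leptin and 10.1, 7.74, 1.92, 9.59 and 5.76 with PBS. Slc4a1 stood at 0.9, 7.69, 2.5 and 0.26 TPM with leptin and 1.53, 1.18, 0.15, 1.67 and 0.88 with PBS. Leptin replicate 2 held the highest value of both genes, and of Klf1 at 3.25 TPM against 0.34–0.76 in the other 3 leptin libraries. The log2 changes were 1.52 (log2, SE 0.73, adjusted p = 0.545) for Ahsp, 1.51 (log2, SE 0.79, adjusted p = 0.591) for Slc4a1, 0.57 (log2, SE 0.56, adjusted p = 0.815) for Gata1 and -0.54 (log2, SE 0.26, adjusted p = 0.545) for Tfrc.

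With insulin supplied to male WT mice, leptin again went with more globin and Alas2 mRNA in CV. 3 members were called higher (Alas2, Hba-a2, Hba-a1) and 0 lower, where 0.155% and 0.558% of all tested genes were called. In TPM, 4 members were higher (Hba-a1, Hba-a2, Hbb-bs, Alas2) and 0 lower without overlap, against 0.659% and 2.29% of all tested genes. Alas2 ranged from 15 to 50.3 TPM (median 24.4) in the 6 mice with leptin and insulin, against 8.69, 3.45, 8.47, 14.2 and 11.5 TPM in the 5 with PBS and insulin. Hbb-bs ranged from 2465 to 6961 TPM (median 3243) against 1176, 531, 1042, 2329.7 and 1895 TPM. Neither gene overlapped, and the log2 changes were 1.65 (log2, SE 0.32, adjusted p = 0.0375) and 1.51 (log2, SE 0.34, adjusted p = 0.0526), so that Hbb-bs missed the threshold. Hba-a1 rose by 1.55 (log2, SE 0.32, adjusted p = 0.0417) and Hba-a2 by 1.57 (log2, SE 0.32, adjusted p = 0.041).

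Slc4a1 had 0.08 (log2, SE 0.67, adjusted p = 0.962) in this comparison, Gata1 -0.0044 (log2, SE 0.40, adjusted p = 0.998) and Tfrc -0.22 (log2, SE 0.19, adjusted p = 0.564), and all 3 overlapped between groups. The number of members called was 0 without leptin and insulin replicate 1, 5 or 6 or without PBS and insulin replicate 1, 2, 3 or 5, and 1 without leptin and insulin replicate 2. limma called 0 members among 81 genes over all tested, and DESeq2 5 among 316. The osteoblast list had 3 of 7 genes called lower, the cartilage list 1 of 6 lower and the island macrophage list 1 of 8 higher, and their part was not tested. All insulin mice carry numbers of the 300 and 400 series and all other mice numbers of the 100, 600 and 5000 series. Insulin and mouse series thus cannot be told apart. Of the 6 mice with leptin and insulin, 3 were of the 300 and 3 of the 400 series, whereas all 5 with PBS and insulin were of the 300 series. The part of series in this leptin comparison was not tested. The labels give the same age for all groups, whereas the paper gives a later age range for its insulin pellet mice. The part of age was not tested.

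With the 5 CV strata in 1 fit with the stratum as a term (51 libraries), a comparison added after the data were seen, 5 members were called higher and 0 lower, where 2.86% and 1.84% of all tested genes were called. The log2 change was 1.65 (log2, SE 0.20, adjusted p = 1.97e-08) for Alas2, 1.62 (log2, SE 0.20, adjusted p = 1.32e-08) for Hbb-bs, 1.61 (log2, SE 0.20, adjusted p = 2.29e-08) for Hba-a2, 1.50 (log2, SE 0.20, adjusted p = 1.65e-07) for Hba-a1 and 1.44 (log2, SE 0.22, adjusted p = 1.15e-06) for Hbb-bt. Ahsp had -0.45 (log2, SE 0.38, adjusted p = 0.386), Slc4a1 -0.43 (log2, SE 0.33, adjusted p = 0.329), Gata1 -0.02 (log2, SE 0.23, adjusted p = 0.959) and Tfrc -0.25 (log2, SE 0.10, adjusted p = 0.0677). The 4 globins, Alas2, Epb41, Slc25a37 and Epor had a positive estimate in all 5 strata, and Ank1 and Alad in 0 of 5. Of the 7 haem enzymes on the list, Alas2 alone was called in this fit.

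**Figure D4:**
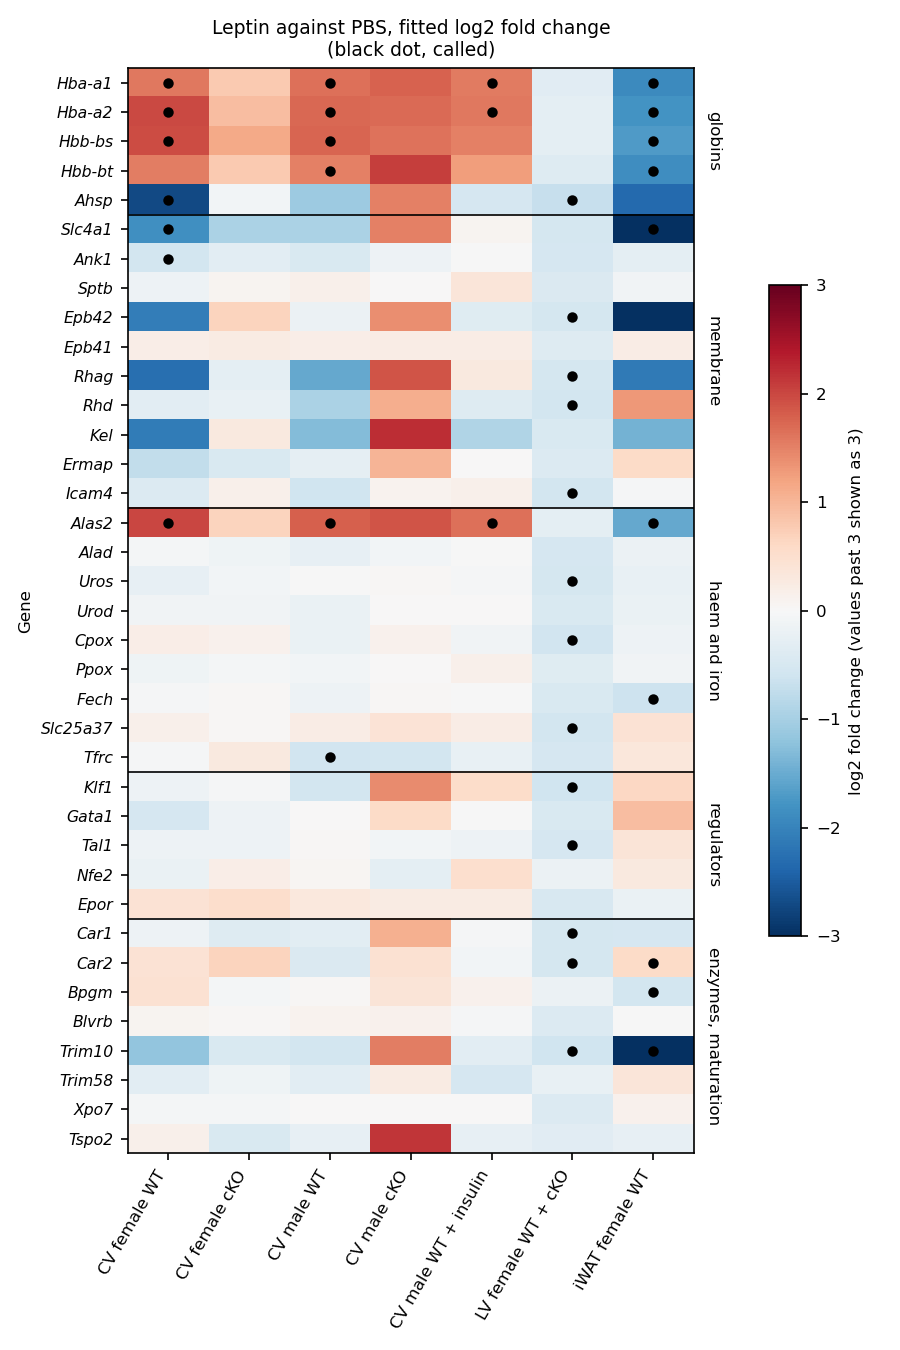
Log2 fold change of leptin against PBS for the 37 genes in 7 comparisons (5 in CV, 1 in LV, 1 in iWAT), with colour capped at 3 in either direction and a black dot where a gene was called. The 4 globins and Alas2 are positive across CV and negative in LV and iWAT, and the LV column is negative throughout.

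In LV, leptin lowered 13 of the 37 genes, none of them a globin or Alas2. With female WT and cKO mice together and genotype as a term (9 leptin and 9 PBS libraries), 13 were called lower and 0 higher, where 0.565% and 0.545% of all tested genes were called. The estimate was negative for all 37 members, with a median of -0.46 on the log2 scale against -0.00 over all genes. By class, the calls were Ahsp among the globin genes, Epb42, Rhag, Rhd and Icam4 among the membrane genes, Uros, Cpox and Slc25a37 among haem and iron, Klf1 and Tal1 among the regulators, and Car1, Car2 and Trim10 among enzymes and maturation.

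Ahsp stood at 2059, 3043, 3269, 3034 and 2564 TPM in WT and 2043, 3187, 3281 and 2368 TPM in cKO mice with leptin. With PBS it stood at 3767, 3848, 4377, 4634 and 4322 TPM in WT and 2850.1, 3261, 5055 and 4952 TPM in cKO mice. The 5 WT leptin libraries lay below the 5 WT PBS libraries, whereas the cKO groups overlapped, with cKO PBS replicates 1 and 2 low. The log2 change was -0.69 (log2, SE 0.12, adjusted p = 0.00602). Trim10, a protein needed in terminal erythroid differentiation, changed by -0.59 (log2, SE 0.13, adjusted p = 0.0194), Klf1 by -0.59 (log2, SE 0.14, adjusted p = 0.0274), Cpox, a late enzyme of haem synthesis, by -0.58 (log2, SE 0.15, adjusted p = 0.0361) and Rhd by -0.55 (log2, SE 0.14, adjusted p = 0.036). Car1 and Car2, carbonic anhydrases of the red cell, changed by -0.54 (log2, SE 0.11, adjusted p = 0.0107) and -0.52 (log2, SE 0.13, adjusted p = 0.034), and Tal1 by -0.51 (log2, SE 0.11, adjusted p = 0.0153).

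Globin and Alas2 mRNA had smaller estimates than these genes in LV. Hbb-bs stood at 78454, 95475, 108993, 100715 and 81814 TPM in WT and 100767, 80579.7, 93797 and 103221 in cKO mice with leptin, and at 66131, 98608, 125578 and 131198 TPM in cKO mice with PBS. Alas2 stood at 403, 613, 661, 663 and 567 TPM in WT and 489, 531, 511 and 606 in cKO mice with leptin, and at 320.1, 477, 858 and 819 in cKO mice with PBS. The log2 changes were -0.28 (log2, SE 0.14, adjusted p = 0.249) for Hbb-bs, -0.29 (log2, SE 0.16, adjusted p = 0.295) for Alas2 and -0.33 (log2, SE 0.16, adjusted p = 0.239) for Hba-a1, none of which passed. Slc4a1 had -0.52 (log2, SE 0.16, adjusted p = 0.0666), while Gata1 at -0.45 (log2, SE 0.11, adjusted p = 0.0309) and Tfrc at -0.50 (log2, SE 0.13, adjusted p = 0.0339) passed the p threshold and not the fold threshold. That the globins and Alas2 had smaller estimates was not tested as a difference between genes.

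The LV result depended on the libraries and the threshold. Leptin and PBS libraries overlapped for all 37 genes with both genotypes in 1 comparison, against 0.148% of all tested genes without overlap as higher and 0.0134% as lower. 20 members had an adjusted p below 0.05 when no fold threshold was set. The count of called members was 2 without WT leptin replicate 1, WT PBS replicate 4 or cKO leptin replicate 1, 3 without cKO leptin replicate 4 or cKO PBS replicate 4, 5 without cKO leptin replicate 2 or cKO PBS replicate 3, 7 without WT leptin replicate 5, 8 without WT PBS replicate 1 and 20 without cKO PBS replicate 1. Scaling by library totals gave 3 calls (133 over all tested genes), limma on log2(TPM + 1) 1 (40 over all), and the WT mice alone 0 (0 over all). The neutrophil sum was 151435–183733 TPM in WT PBS, 130219–238093 in WT leptin, 144918–260297 in cKO PBS and 168138–215312 in cKO leptin libraries, with 0 of 10 genes called, and the adipocyte list had 2 of 8 called lower. The highest sums were those of cKO PBS replicate 1 at 260297 TPM, WT leptin replicate 5 at 238093 TPM and cKO PBS replicate 2 at 237098 TPM. The part of these lists in the changes of the 37 genes was not tested.

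**Figure D5:**
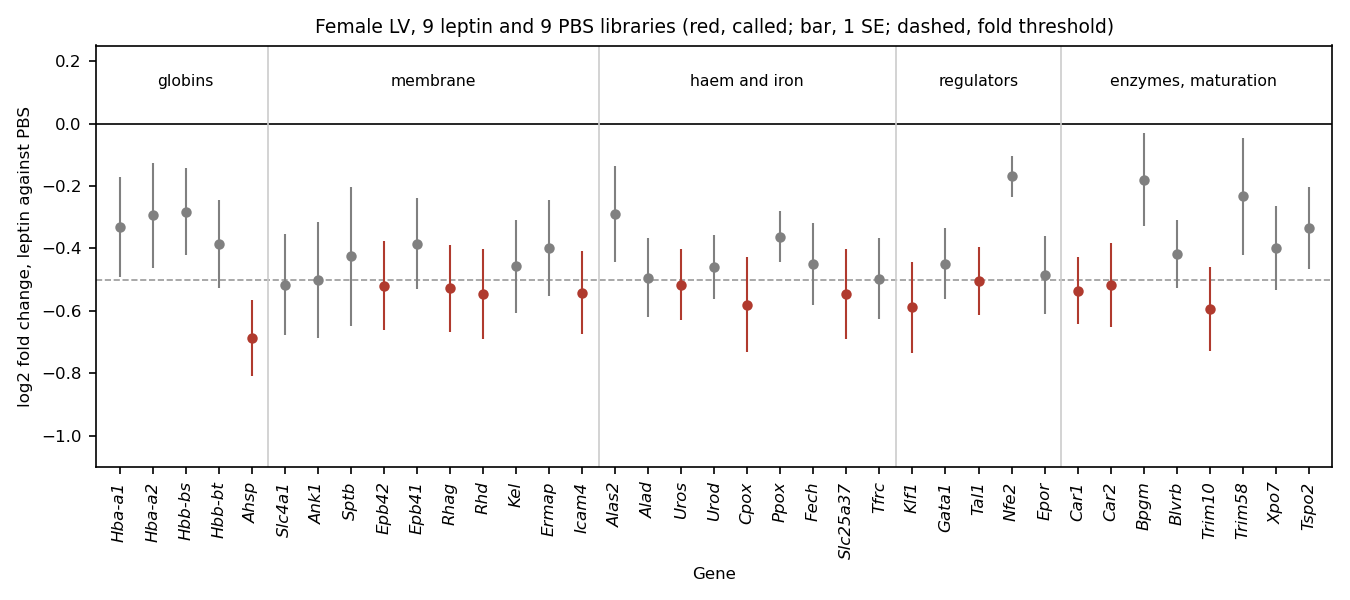
Log2 fold change of leptin against PBS in LV (9 against 9 female mice, genotype as a term) for the 37 genes, with bars of 1 SE, called genes in red and the fold threshold of 0.5 dashed. All 37 points lie below 0, and the globins and Alas2 lie closer to 0 than Ahsp, Trim10 and Klf1.

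In iWAT of female WT mice, leptin lowered the 4 globin genes and Alas2. 9 members were called lower (Hba-a1, Hba-a2, Hbb-bs, Hbb-bt, Alas2, Fech, Bpgm, Slc4a1, Trim10) and 1 higher (Car2), where 7.87% and 7.24% of all tested genes were called. All 10 had groups that did not overlap, against 14.3% of all tested genes without overlap as lower and 4.32% as higher. Hbb-bs stood at 142, 593, 414, 198 and 701 TPM with leptin and at 1667, 1172, 1464, 1581 and 1312 with PBS. Alas2 stood at 1.53, 5.44, 2.73, 1.34 and 6.15 TPM with leptin and at 11.4, 8.11, 10.3, 12.6 and 11 with PBS. Leptin replicates 1 and 4 were the lowest for both. The log2 changes were -1.70 (log2, SE 0.39, adjusted p = 0.01) for Hbb-bs, -1.54 (log2, SE 0.40, adjusted p = 0.0173) for Alas2, -1.90 (log2, SE 0.44, adjusted p = 0.0102) for Hba-a1, -1.79 (log2, SE 0.43, adjusted p = 0.0121) for Hba-a2 and -1.87 (log2, SE 0.42, adjusted p = 0.00958) for Hbb-bt.

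Fech stood at 27.8, 33.4, 35.5, 27.4 and 33.4 TPM with leptin and 53.8, 44.8, 48, 54.1 and 57 with PBS, and fell with -0.62 (log2, SE 0.10, adjusted p = 0.00207). Bpgm, which makes the phosphate ester that lowers the oxygen affinity of haemoglobin, stood at 18.6, 20.5, 18.5, 20.4 and 21 against 32.6, 27.1, 30.3, 32.3 and 31 TPM, with -0.54 (log2, SE 0.09, adjusted p = 0.00167). Car2 stood at 10.6, 8.1, 8.03, 10.1 and 8.6 against 5.13, 7.79, 6.22, 6.14 and 6.79 TPM, and rose by 0.58 (log2, SE 0.15, adjusted p = 0.0162). Slc4a1 had 3 counts over the 5 leptin libraries and 40 over the 5 PBS libraries, a ratio, after scaling by the library totals, of 0.0738 (95% exact interval 0.0146–0.232, which covers counting error only). Trim10 had 0 and 13 counts, a ratio of 0 with a 95% exact interval of 0–0.323, which again covers counting error only. Ahsp was listed at 0 in 4 of 5 leptin libraries and 1 of 5 PBS libraries, with 1 and 7 counts in all. Gata1 had 22, 26, 23, 34 and 28 counts with leptin and 15, 20, 16, 6 and 8 with PBS. Its log2 change was 0.92 (log2, SE 0.31, adjusted p = 0.051). It was called higher with DESeq2, with scaling by library totals and with the mouse number series as a term. Tfrc had 0.34 (log2, SE 0.25, adjusted p = 0.337). The adipocyte list summed to 54869–94175 TPM with leptin and 66211–84918 with PBS, with 4 of 8 genes called lower and 1 higher, and its part in these changes was not tested.

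Whether these leptin effects differed was tested with interaction terms. In female WT mice, 9 members had a lower leptin effect in LV than in CV and 0 a higher one, where 1.97% and 0.558% of all tested genes were called. They were Hba-a2 at -2.36 (log2, SE 0.49, adjusted p = 0.0116), Hbb-bs at -2.28 (log2, SE 0.46, adjusted p = 0.01), Alas2 at -2.26 (log2, SE 0.52, adjusted p = 0.0186), Hba-a1 at -1.98 (log2, SE 0.52, adjusted p = 0.0398), Hbb-bt at -1.94 (log2, SE 0.52, adjusted p = 0.041), Epor, the erythropoietin receptor, at -0.90 (log2, SE 0.22, adjusted p = 0.0249), Cpox at -0.74 (log2, SE 0.16, adjusted p = 0.0145), Slc25a37 at -0.72 (log2, SE 0.19, adjusted p = 0.0382) and Epb41 at -0.59 (log2, SE 0.15, adjusted p = 0.0297). CV and LV came from the same mice, and with the mouse as a block 5 members were called, among 312 genes over all tested. Hba-a1 then had -1.81 (adjusted p = 0.0625), Hbb-bt -1.78 (adjusted p = 0.0606), Slc25a37 -0.75 (adjusted p = 0.0966) and Epb41 -0.60 (adjusted p = 0.056). Ahsp had a difference of 2.03 (log2, SE 0.57, adjusted p = 0.0528) and Slc4a1 of 1.31 (log2, SE 0.48, adjusted p = 0.152), neither of which passed.

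Between iWAT and CV of female WT mice, a comparison added after the data were seen, the leptin effect was lower in iWAT for 7 members and higher for 0, where 6.64% and 4.68% of all tested genes were called. The 7 were Hba-a2 at -3.82 (log2, SE 0.65, adjusted p = 0.00082), Hbb-bs at -3.71 (log2, SE 0.61, adjusted p = 0.000677), Alas2 at -3.58 (log2, SE 0.66, adjusted p = 0.00146), Hba-a1 at -3.52 (log2, SE 0.68, adjusted p = 0.00205), Hbb-bt at -3.45 (log2, SE 0.68, adjusted p = 0.00234), Bpgm at -1.03 (log2, SE 0.28, adjusted p = 0.0186) and Fech at -0.61 (log2, SE 0.13, adjusted p = 0.00363). Both interactions share the CV libraries, so they are not independent of each other.

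No member was called for a difference of the leptin effect between sexes, genotypes or insulin states in CV, where edgeR called 0 of 14873 genes in each of the 4 tests. DESeq2 and limma also called 0 members. The number of members with an unadjusted p below 0.05 was 4 for male minus female WT, 3 for cKO minus WT in females, 10 for cKO minus WT in males and 3 for insulin. Hbb-bs differed by -0.86 (log2, SE 0.71, adjusted p = 0.884) between female cKO and WT and by -0.12 (log2, SE 0.52, adjusted p = 1) between male cKO and WT. Alas2 differed by -1.35 (log2, SE 0.70, adjusted p = 0.825) and 0.08 (log2, SE 0.55, adjusted p = 1) in the same tests. These errors leave differences of about the size of the leptin effect itself unresolved in females. That members passed in WT and not in cKO CV is thus not shown to be a difference between genotypes.

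No member was called for genotype or insulin alone. edgeR called 0 of all tested genes for cKO against WT with PBS in female CV, male CV and female LV, with 2, 0 and 0 members at an unadjusted p below 0.05. For insulin, 0.00672% of all tested genes were called with PBS and 0.0202% with leptin, with 2 and 5 members at an unadjusted p below 0.05. DESeq2 and limma called 0 members in all 5 of these comparisons. Hbb-bs had -0.51 (log2, SE 0.41, adjusted p = 0.721) in female CV and 0.14 (log2, SE 0.31, adjusted p = 0.984) in male CV for cKO against WT, and -0.02 (log2, SE 0.19, adjusted p = 1) in LV. For insulin against none it had -0.30 (log2, SE 0.37, adjusted p = 0.81) with PBS and -0.53 (log2, SE 0.25, adjusted p = 0.38) with leptin. Alas2 had -0.40 (log2, SE 0.33, adjusted p = 0.694) and -0.55 (log2, SE 0.26, adjusted p = 0.385) in the same order.

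Between male and female WT mice with PBS, Hba-a2 was the only member called in CV, lower in males by -1.06 (log2, SE 0.33, adjusted p = 0.0361), where 4.46% of all tested genes were called lower and 3.5% higher. Hba-a2 stood at 1556, 621, 1689.5, 813 and 566 TPM in males and 1583, 2089.9, 2151, 2599 and 4853 in females. Hba-a1 had 0.63 (log2, SE 0.32, adjusted p = 0.164) in the opposite direction. With the reads of both genes summed, 0 members were called. The call was also lost without male PBS replicate 2, 4 or 5, while without female PBS replicate 1 there were 3 calls. Hbb-bs had -0.01 (log2, SE 0.31, adjusted p = 0.985) and Alas2 -0.62 (log2, SE 0.32, adjusted p = 0.176).

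A further list of 60 genes of the same pathways, none of them a member, gives the context. In LV against CV, 52 were called higher and 1 lower, where 31.7% and 34.9% of all tested genes were called. Hemgn differed by 9.57 and Gfi1b, an erythroid repressor, by 7.40 on the log2 scale. Alas1, the form of the first haem enzyme that other tissues use, differed by 1.57, Tfr2 by 2.75, Aqp1 by 0.58 and Kit, the one gene of the list called lower, by -0.97. Cd163, a haemoglobin receptor taken from the island macrophage list and not from these 60, differed by -1.37. In iWAT against CV, 17 were called higher and 13 lower, where 24.5% and 26% of all tested genes were called.

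With leptin, 2 of the 60 were called higher and 3 lower in CV of female WT mice, against 2.78% and 2.25% of all tested genes. In CV of male WT mice 1 was called higher and 1 lower, against 0.834% and 0.914% of all tested genes. Hmox1, which breaks haem down, rose in both, by 1.31 (log2, SE 0.25, adjusted p = 0.0136) in females and 1.10 (log2, SE 0.24, adjusted p = 0.0254) in males. Tfr2, a second transferrin receptor, fell in both, with -1.18 (log2, SE 0.25, adjusted p = 0.0194) and -1.80 (log2, SE 0.32, adjusted p = 0.00776). Hemgn had -1.57 (log2, SE 0.60, adjusted p = 0.122) in females. In LV, 0 were called higher and 9 lower, against 0.545% and 0.565% of all tested genes. In iWAT, 7 were called higher and 5 lower, against 7.24% and 7.87% of all tested genes. Alas1 was higher there by 1.12 (log2, SE 0.26, adjusted p = 0.0105) and Aqp1 lower at -0.52 (log2, SE 0.14, adjusted p = 0.022). The 2 forms of the first haem enzyme thus moved in opposite directions in iWAT. With leptin in insulin-treated male WT mice 1 was called higher, Hmox1 at 0.83 (log2, SE 0.18, adjusted p = 0.0422), and 1 lower, Tfr2 at -1.15 (log2, SE 0.24, adjusted p = 0.0422). Of all tested genes 0.155% and 0.558% were called in that comparison. For genotype, for insulin against none and for leptin in cKO CV, 0 of the 60 were called, where at most 0.188% of all tested genes were called.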

How the data were processed

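Gene counts and TPM of 79 libraries were analysed. Per the labels and the study's methods, RNA was extracted with TRIzol, enriched with oligo dT, reverse transcribed with random primers and sequenced on DNBSEQ as 100-base pairs. Per the submitters' processing notes HISAT and Bowtie2 were used with GRCm38.p6 (GRCm39 is also listed), and the counting tool is not given in the sources used here. The deposited counts are estimated counts (expected counts): 51 values in 6 genes were not whole and were rounded. The authors' TPM, also deposited, was used as given for levels. Of 74693 rows, 35630 without a gene ID held 0 counts and were left out.

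Genes averaging 0.4 TPM or more were tested with edgeR 4.0.16 in R 4.3.3 (TMM scaling, quasi-likelihood test, Benjamini-Hochberg adjustment over 14873 genes). limma 3.58.1 on log2(TPM + 1) and DESeq2 1.42.0 were alternatives. The test was run on simulated data first. Members, lists and tests were chosen with earlier results of these data known. Fold changes are given for called members (up to the 10 largest) and, called or not, for Hba-a1, Hbb-bs, Alas2, Slc4a1, Gata1 and Tfrc, and values per library for those 6 and members going against their class. Ahsp, Hba-a2 and Hbb-bt were given beyond this rule where they bear on it. Replicate numbers tie CV, LV and iWAT to the same mouse. Between leptin and PBS groups they mark different mice, and their deviations did not correlate throughout. For cKO against WT in LV the 4 pairs did (lowest r 0.106), with no call either way. The fit over all CV libraries, the iWAT interaction and the sum of Hba-a1 and Hba-a2 were added after seeing the data. No 2 libraries were near-identical.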

Additional observations from a re-analysis of the deposited data

Results flagged for a closer look

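3 of 112 sets of a gene in a group held a library far from the rest, by a test that flags about 1 in 20 by chance. Ahsp in iWAT leptin replicate 4 was at 0.3 TPM, the other 4 libraries being at 0, which is 1 count. Ahsp in CV of male WT mice with leptin and insulin was at 21.7 TPM in replicate 5, with the next at 5.65 TPM. Tfrc in CV of female WT PBS mice was at 48.9 TPM in replicate 4, with the next at 37.6 TPM.

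The leptin effect differed between LV and CV of female WT mice for 9 members, with log2 differences (LV minus CV) of -1.98 for Hba-a1, -2.36 for Hba-a2, -2.28 for Hbb-bs, -1.94 for Hbb-bt, -2.26 for Alas2, -0.90 for Epor, -0.74 for Cpox, -0.72 for Slc25a37 and -0.59 for Epb41. It differed between iWAT and CV for 7 members, with differences (iWAT minus CV) of -3.52 for Hba-a1, -3.82 for Hba-a2, -3.71 for Hbb-bs, -3.45 for Hbb-bt, -3.58 for Alas2, -1.03 for Bpgm and -0.61 for Fech. The 4 globins and Alas2 were called lower with leptin in iWAT, and in LV none of the 5 was called.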

How the results depend on the processing

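Over the alternatives that kept all libraries, the named genes kept their direction and their side of the threshold in 637 cases, no longer passed in 66, newly passed in 10 and turned direction in 1 (Ank1 in LV against CV, -0.62 with limma on log2(TPM + 1)). With the replicate number as a block, members called fell from 6 to 0 for leptin in male WT CV, from 3 to 0 with insulin, from 1 to 0 between sexes and from 9 to 5 for the leptin effect in LV minus CV, the last with the mouse as the block. Over all tested genes, calls in the same order went from 260 to 65, from 106 to 1, from 1184 to 1339 and from 376 to 312. The block moved no other count of members by over 1.5 times, and outside the same-mouse comparisons the numbers mark different mice. DESeq2 called 5 members for leptin in male cKO CV, 5 with insulin and 2 between sexes (214, 316 and 1265 over all tested genes). limma called 1 for leptin in LV, 0 with insulin and 3 between sexes (40, 81 and 1636 over all). Without a fold threshold 20 were called for leptin in LV and 8 between sexes (805 and 3917 over all). Scaling by library totals gave 3 for leptin in LV, WT mice alone gave 0, and the sum of Hba-a1 and Hba-a2 gave 0 between sexes. The causes were not tested, other than that WT mice alone are fewer. Leaving out 1 library at a time, members called ranged from 37 to 37 for LV against CV, 22 to 25 for iWAT against CV, 0 to 7 for leptin in female WT CV, 4 to 6 in male WT CV, 2 to 20 in LV, 10 to 11 in iWAT, 0 to 4 with insulin and 0 to 3 between sexes, and were 0 throughout for the cKO leptin, insulin and genotype comparisons. It was not run for the interactions or the fit over all CV libraries. Rhag and Kel, with 2 and 1 counts over the iWAT PBS libraries, could not show a fall with leptin there at this depth.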

Other observations

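The balance of alpha to beta globin mRNA was also read by tissue. The summed TPM of Hba-a1 and Hba-a2 divided by that of Hbb-bs and Hbb-bt had a mean of 1.59 ± 0.10 (SD, n = 5) in CV, 0.936 ± 0.07 (SD, n = 5) in LV and 1.46 ± 0.17 (SD, n = 5) in iWAT of female WT PBS mice. In male WT PBS CV it was 1.45 ± 0.07 (SD, n = 5). The cKO PBS group was the widest of the 4 LV groups for the globin genes, with Hba-a1 at 49453, 67519, 101639 and 102172 TPM against 82722, 84074, 73768, 107893 and 86305 TPM in WT PBS mice.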
